A study of Mus musculus with 40 samples.

Results

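The change in DNA methylation between the pro-B and the follicular stage of B cells lacking Tet2 was examined in data from reduced representation bisulfite sequencing (RRBS), an assay limited to fragments rich in CpG that are cut out by a restriction enzyme. The follicular Tet2KO group held libraries 16, 17 and 18, and the pro-B Tet2KO group held libraries 4, 5 and 6, numbered as in their titles. They were 6 of 24 RRBS libraries, in 8 groups of 3, that also covered Tet3KO, Tet2/Tet3 double-knockout (DKO) and wild-type (WT) cells at both stages. All mice were C57/bl, and per the labels the knockouts were inducible and placed under the MB1 promoter, that of Cd79a, a subunit of the B-cell receptor complex. All 6 Tet2KO libraries were labelled female. Libraries 16 and 4 came from animals of 8 weeks and libraries 17, 18, 5 and 6 from animals of 6 weeks. Tet3KO libraries were from animals of 7 weeks, DKO libraries from animals of 6 or 7 weeks and WT libraries from animals of 6 or 8 weeks, each with both sexes. Whether each library of a group is a mouse of its own is not stated in the labels, so a p-value here reflects only library-to-library spread. The measured units were 298287 of the 971845 tiles of 100 bp in the deposited table, those on autosomes for which each of the 6 Tet2KO libraries had a value.

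Tet enzymes are dioxygenases that oxidise 5-methylcytosine, a step that leads to its removal by repair or by dilution at replication. Tet2 and Tet3 are both expressed in the B lineage. Pro-B cells are early bone marrow progenitors that rearrange the immunoglobulin heavy chain gene, and follicular B cells are the main mature resting population of the spleen and lymph nodes. B-cell maturation is known to include loss of methylation at enhancers, and CpG islands stay largely unmethylated in most cell types. A tile's level is an average over the cells and alleles of a sorted population, so a level between 0 and 100% can come from a mixture of cells.

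Depth was unknown, because the table gives a methylation fraction per tile and no read counts. As a rough measure of coverage, a value was listed for 533586 to 580328 in follicular and 402283 to 631415 tiles in pro-B Tet2KO libraries. The follicular mean exceeded the pro-B mean by 32743 tiles in Tet2KO, against 267798 in Tet3KO, 84459 in DKO and 194521 in WT, and the gap was thus smallest in Tet2KO. Pro-B Tet3KO library 8 had 24600 tiles and is left out of the group levels below. Of the Tet2KO values used, 21.6 to 23.2% in follicular libraries and 26.7 to 30.5% in pro-B libraries were exactly 0. Exactly 100% was listed for 10.7 to 13.4% of follicular and 17.2 to 28.1% of pro-B values. Library 6, with the fewest tiles, had the highest shares of both.

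Over all 298287 tiles, methylation was nearly the same at the stages of Tet2KO cells. The mean level was 53.0, 53.1 and 53.1% in follicular libraries 16, 17 and 18, against 52.3, 53.0 and 51.4% in pro-B libraries 4, 5 and 6. The difference of 0.833 points (SE 0.484) was within the spread of the pro-B libraries (two-sided exact permutation p = 0.2, where 3 against 3 libraries cannot give less than 0.1). It was 0.394 points without library 6 and 1.23 points without library 5. By chromosome the mean difference ran from 0.728 points on chromosome 14 to 1 point on chromosome 18 and was above 0 on each of the 19 autosomes. The follicular libraries lay within 0.1 points of each other, while the pro-B libraries were spread over more than 1 point.

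Tiles were then divided by their mean level in the 6 libraries. Little methylation, under 20%, was found at 118521 tiles (39.7%), 36456 tiles (12.2%) lay between 20 and 80%, and 143310 tiles (48.0%) lay above 80%. At intermediate tiles the level was 57.6, 58.0 and 57.9% in follicular libraries 16, 17 and 18, against 53.7, 57.3 and 46.8% in pro-B libraries 4, 5 and 6. All follicular libraries lay above all pro-B libraries, and the means differed by 5.24 points (SE 3.08; two-sided exact permutation p = 0.1, the smallest possible). Library 5 was close to the follicular libraries and library 6 far below them. At tiles under 20% the level was 2.68% ± 0.00949 in follicular and 1.96% ± 0.189 in pro-B libraries (SD, n = 3 each, exact permutation p = 0.1). At tiles above 80% the stages overlapped, with 93.5% ± 0.034 in follicular and 93.7% ± 0.28 in pro-B libraries (SD, n = 3 each, exact permutation p = 0.2).

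**Figure D1:**
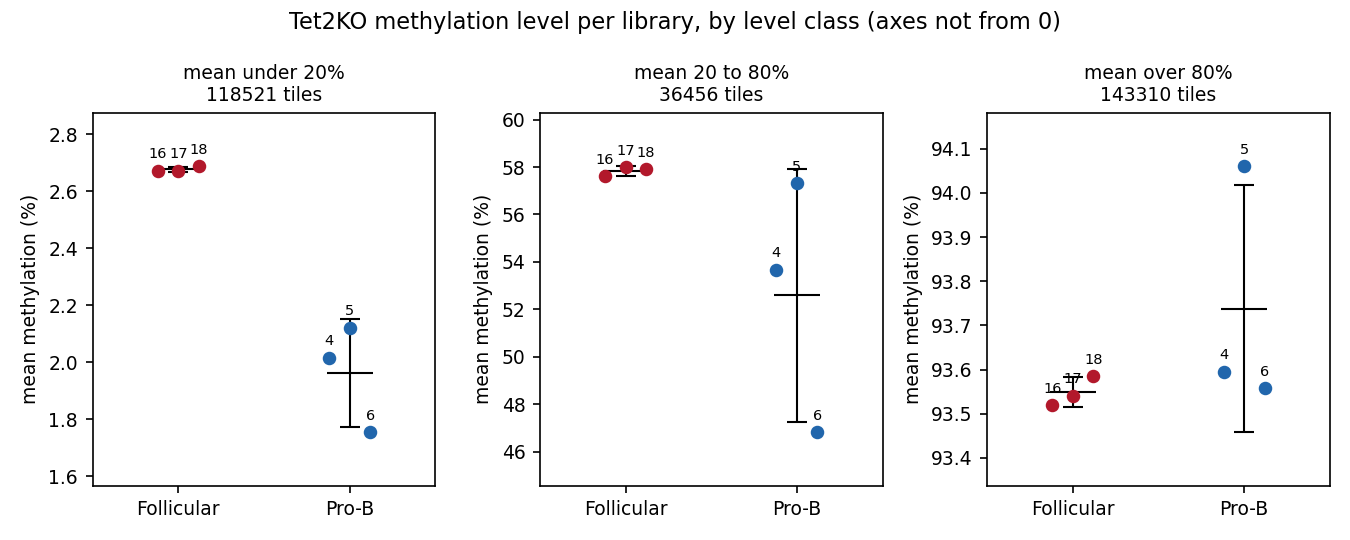
Mean methylation in percent of each Tet2KO library (points, running number above), over tiles with a mean under 20%, of 20 to 80% and over 80%; black lines give the group mean and SD of 3 libraries, and the axes do not start at 0. The follicular libraries sit close together in each class, and pro-B library 6, at 46.8%, is the lowest at intermediate tiles.

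The spread between libraries of a stage was larger in pro-B cells. At intermediate tiles the median SD over 3 libraries was 8.45 points in follicular and 15.5 points in pro-B cells. At tiles above 80% it was 3.18 points in follicular and 3.92 points in pro-B cells. At tiles under 20% it was instead larger in follicular cells, at 0.469 points against 0.0639 points in pro-B cells. When the intermediate class was instead defined by the mean of the WT libraries, which are not part of the comparison, the Tet2KO difference was 3.40 points (SE 2.04, exact permutation p = 0.1). The follicular libraries then stood at 61.4 to 61.6%, against 58.6, 61.3 and 54.3% in pro-B libraries 4, 5 and 6. These WT-defined classes were added after the data were seen.

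Tile density, used as a rough stand-in for CpG islands, divided the tiles further. Dense tiles, with 8 or more other tiles starting within 500 bp, numbered 20993 and were little methylated, at 7.79% ± 0.0366 in follicular and 7.46% ± 0.0824 in pro-B libraries (SD, n = 3 each). The difference was 0.325 points (SE 0.052, exact permutation p = 0.1), and the stages did not overlap. Isolated tiles, with no other tile in that window, numbered 33427 and stood at 85.1% ± 0.0762 in follicular and 84.0% ± 1.26 in pro-B libraries, with overlap (SD, n = 3 each, exact permutation p = 0.3). On a tile-by-tile basis 8341 tiles (2.80%) lay at least 20 points higher in the follicular mean and 2972 tiles (0.996%) at least 20 points lower. Most of these large differences, 6288 of the higher and 2095 of the lower ones, were at intermediate tiles, where libraries of a stage also differed most.

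In follicular Tet2KO cells methylation was lower than in pro-B cells at 63 called tiles, here said to fall, and higher at 128, said to rise. A tile was called when limma's Benjamini-Hochberg adjusted p, over all 298287 tiles and with the spread estimated from all 24 libraries, was under 0.05 and the stage means differed by at least 20 points. The falling tiles were 0.0211% and the rising tiles 0.0429% of those tested. The smallest differences called were -20.3 and 20.7 points, and a further 145 tiles had an adjusted p under 0.05 with a smaller difference. An unadjusted p under 0.05 was found at 19264 tiles (6.46%). The falling tiles had a median change of -42.1 points and reached -99.0, and the rising tiles had a median change of 45.0 and reached 90.5. Their adjusted p-values ran from 0.000211 to 0.0499 for falls and from 0.000938 to 0.0498 for rises. The falling tiles lay on 15 autosomes and the rising tiles on all 19.

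These calls leaned on the spread shared by all groups. With only the 6 Tet2KO libraries fitted, limma called 12 falls and 5 rises, of which 0 and 0 were among the 63 and 128, and with age added to that fit it called 0 of either kind. With all 24 libraries and pro-B library n blocked with follicular library n + 12, it also called 0 falls and 0 rises. The labels do not state such pairs, though their members agree in sex and age. With libraries centred on a common mean, 31 fell and 22 rose, so rises made up 41.5% of calls in place of 67.0%. Without pro-B library 5 there were 516 rises in place of 128, and without follicular library 18 there were 79.

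The falling tiles were highly methylated in pro-B cells. In 58 of the 63 (92.1%) the pro-B mean was above 80%, against 47.1% of all tiles tested, and in the other 5 it lay between 20 and 80%. A fall of at least 20 points cannot start from a pro-B mean under 20%. The high pro-B level thus partly follows from the call rule, and so do the shares of 100% below. Over all tiles, 140605 had a pro-B mean above 80% and 37441 one between 20 and 80%. All 3 pro-B libraries were listed at exactly 100% at 17 of the 63 (27%), against 8.51% of all tiles. Values of exactly 100% made up 42.9, 41.3 and 57.1% of the falling tiles in pro-B libraries 4, 5 and 6, against 21, 17.2 and 28.1% of all tiles in those libraries. The part of few reads in these values was not tested. In follicular cells 15 stood below 20% and 48 between 20 and 80%, so partial loss was more frequent than full loss. None were dense tiles, 51 were of intermediate density and 12 were isolated, against 7.04%, 81.8% and 11.2% of all tiles tested. The 63 tiles formed 59 regions when called tiles within 500 bp were joined, and 3 regions held at least 2 called tiles. Regions are named by mm9 coordinates, since gene models of that build were not used here, and the named ones were ranked by size, so their Tet2KO changes are overstated.

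The longest falling region, with 3 called tiles, was chromosome 9, 44379001 to 44379300. It stood at 11.5, 20.2 and 25.5% in follicular Tet2KO libraries 16, 17 and 18, against 96.6, 100 and 100% in pro-B libraries 4, 5 and 6. The stages were far apart, with a change of -79.8 points and adjusted p-values (limma) of 0.000211 to 0.0397 for its tiles. Follicular Tet3KO cells stood at 48.0% ± 5.57, DKO at 97.4% ± 3.07 and WT at 5.56% ± 2.86 (SD, n = 3 each). The pro-B level was 100, 96.0 and 99.3% in the single Tet3KO, DKO and WT libraries with a value. The region was thus largely unmethylated in follicular cells without Tet2 and in WT follicular cells, and methylated in those without both enzymes.

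Chromosome 8, 74844701 to 74844900, gave the same picture with values in more libraries. Its level was 27.7, 26.8 and 16.7% in follicular Tet2KO libraries, against 79.8, 95.0 and 98.7% in pro-B Tet2KO libraries. In Tet3KO the follicular level was 59.9% ± 2.85 (SD, n = 3) and the pro-B level 91.2% ± 12.4 (SD, n = 2). In DKO it was 88.1% ± 5.36 in follicular and 91.8% ± 10.2 in pro-B cells, and in WT it was 15.1% ± 1.77 in follicular and 93.3% ± 8.3 in pro-B cells (SD, n = 3 each). The Tet2KO change of -67.4 points stood beside -31.3 in Tet3KO, -3.79 in DKO and -78.2 in WT. Follicular levels of the 4 genotypes fell apart here into low (Tet2KO and WT), middle (Tet3KO) and high (DKO).

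Chromosome 5, 32824301 to 32824600, behaved otherwise. It stood at 63.6, 69.1 and 63.3% in follicular Tet2KO libraries, against 94.6, 95.9 and 94.3% in pro-B Tet2KO libraries. The change was -29.6 points in Tet2KO, -26.9 in Tet3KO, -26.9 in DKO and -26.7 in WT. A fall of similar size was therefore measured in each genotype, including the one that lacks both enzymes, at 69.4% ± 9.29 in follicular and 96.2% ± 3.45 in pro-B DKO cells (SD, n = 3 each).

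The remaining named falling regions were single tiles. Chromosome 17, 86866801 to 86866900, was at 3.12, 0 and 0% in follicular Tet2KO libraries, against 100% in each pro-B Tet2KO library. Follicular Tet3KO libraries were each at 0 there, DKO at 93.7% ± 7.27 and WT at 5.92% ± 7.71 (SD, n = 3 each). Chromosome 15, 61813201 to 61813300, was at 2.20, 14.1 and 5.13% in follicular Tet2KO libraries, against 82.0, 91.6 and 100% in pro-B Tet2KO libraries. Follicular Tet3KO cells stood there at 27.2% ± 3.62, DKO at 96.6% ± 2.28 and WT at 1.77% ± 1.56 (SD, n = 3 each). Chromosome 19, 53517501 to 53517600, was at 23.7, 9.68 and 0% in follicular Tet2KO libraries, against 100, 100 and 79.2% in pro-B Tet2KO libraries. At that tile DKO cells were at 93.2% ± 4.64 in follicular and 94.4% ± 3.08 in pro-B cells (SD, n = 3 each). The 3 tiles shared a near-complete loss in follicular Tet2KO cells and a level above 90% in follicular DKO cells.

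The other 4 single tiles had means of 5.93% (chromosome 2, 50543401 to 50543500), 6.72% (chromosome 5, 136917501 to 136917600), 16.2% (chromosome 1, 173846201 to 173846300) and 16.8% (chromosome 11, 118137901 to 118138000) in follicular Tet2KO cells. Their pro-B Tet2KO means were 91.2 to 100%. In follicular DKO cells these 4 tiles stood at 92.1, 84.5, 69.2 and 96.2% in the same order. Over the 10 named falling regions the follicular mean was 1.04 to 65.4% in Tet2KO, 0 to 73.1% in Tet3KO, 69.2 to 97.4% in DKO and 0 to 73.3% in WT. The median change was -83.5 points in Tet2KO, which chose the regions, against -48.5 in Tet3KO (9 regions with values), -3.77 in DKO (10 regions) and -83.4 in WT (8 regions). Of the 10, the tile on chromosome 5 at 136917501 was not called on logit values, with libraries centred, or without library 16, 17, 4 or 6.

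Over all 63 falling tiles the same graded pattern was measured in the other genotypes, whose libraries entered the choice of the tiles only through the shared spread. The follicular level was 43.6 to 44.4% in the Tet2KO libraries, 58.6 to 61.0% in Tet3KO, 79.4 to 80.7% in DKO and 41.6 to 42.6% in WT. The ranges did not overlap between genotypes. The Tet2KO libraries chose these tiles, so the low follicular Tet2KO level and its distance from the other genotypes partly follow from that choice. Over all tiles the follicular mean was 53.1% in Tet2KO, 53.1% in Tet3KO, 53.6% in DKO and 52.6% in WT. The pro-B level was 92.5% ± 0.731 in Tet2KO (n = 3), 86.6% ± 2.5 in Tet3KO (n = 2), 89.6% ± 1.03 in DKO (n = 3) and 82.7% ± 0.831 in WT (n = 3), each a mean ± SD over libraries. These means rest on unlike sets of tiles. Pro-B Tet3KO libraries 7 and 9 had values at 44 and 45 of the 63 tiles. DKO libraries 10, 11 and 12 had 59, 49 and 33, and WT libraries 1, 2 and 3 had 32, 53 and 44. The median stage change was -42.1 points in Tet2KO, -20.5 in Tet3KO (31 tiles with at least 2 values per stage), -8.11 in DKO (48 tiles) and -36.2 in WT (48 tiles). Over all tiles with values the medians were 0, 0.036, 0 and 0 points in the same order.

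A change of -20 points or lower at the falling tiles was found at 18 of 31 tiles in Tet3KO (58.1%), 13 of 48 in DKO (27.1%) and 37 of 48 in WT (77.1%). Over all tiles with values that share was 0.996% in Tet2KO, 1.12% in Tet3KO, 1.16% in DKO and 1.29% in WT. In DKO 33 of the 48 tiles changed by less than 20 points in either direction. The subset of 30 falling tiles with a change in all 4 genotypes kept the order of follicular levels, at 49.3% ± 0.464 in Tet2KO, 60.8% ± 1.40 in Tet3KO, 72.7% ± 1 in DKO and 47.0% ± 0.353 in WT (SD, n = 3 each). The median change at these 30 tiles was -33.5 points in Tet2KO, -22.1 in Tet3KO, -12.6 in DKO and -32.6 in WT. The tiles were picked for a large fall in Tet2KO, so its change is overstated relative to the others.

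**Figure D2:**
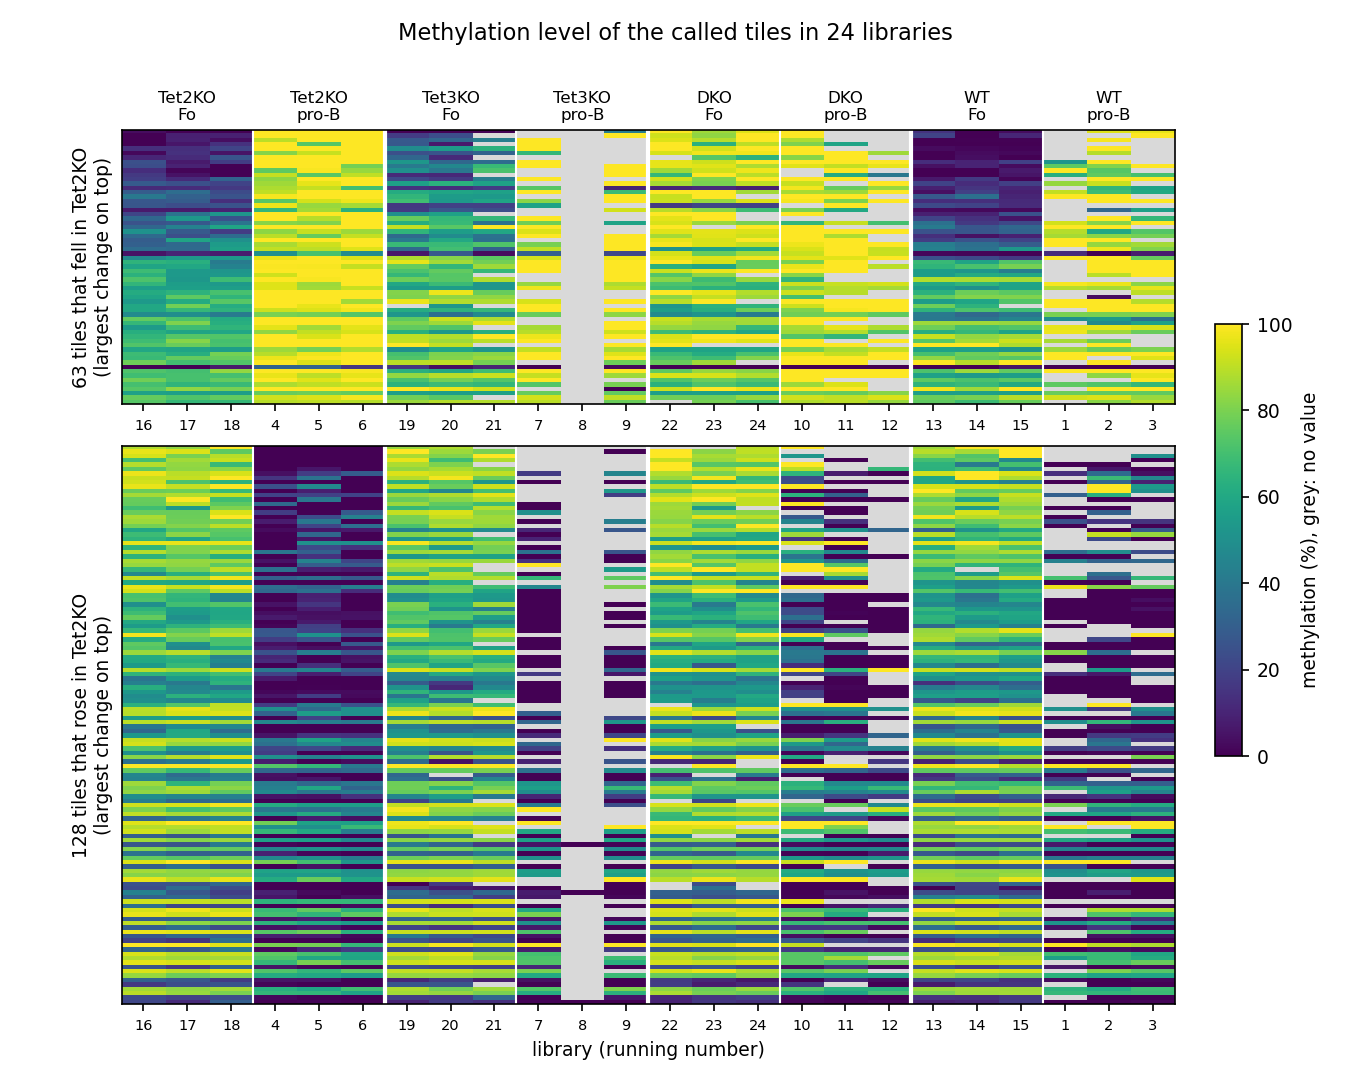
Methylation level in percent (colour) of the 63 tiles that fell and the 128 tiles that rose in Tet2KO cells, 1 row per tile and 1 column per library, with the 2 stages of a genotype side by side and grey where no value was given. Most of the larger falls are dark in follicular (Fo) Tet2KO and WT libraries and bright in follicular DKO libraries, while the rising tiles look alike in the follicular libraries of all genotypes.

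The difference between genotypes in the stage change was tested for each tile in the same limma fit. Against DKO, the Tet2KO change was more negative at 53 tiles (0.0196% of 270905) and more positive at 6 (0.00221%). Of the 48 falling tiles testable in DKO 9 were among those called in this contrast. They included both tiles named above on chromosomes 15 and 19, at adjusted p-values of 0.00346 and 0.0115, and the chromosome 8 region, at 0.0124 for its lowest tile. Against Tet3KO, the Tet2KO change was more negative at 134 tiles (0.067% of 199864) and more positive at 6 (0.003%), and 1 of the 31 falling tiles testable in Tet3KO was among them. Against WT, it was more negative at 57 tiles (0.0219% of 259891) and more positive at 7 (0.00269%), and 1 of the 48 falling tiles testable in WT was among them. The contrasts with DKO and Tet3KO were added after the data were seen, and all 3 share the Tet2KO libraries. The falling tiles were chosen by the same Tet2KO change that enters these contrasts, which favours a more negative contrast at them. The counts and adjusted p-values (limma) for falling tiles are therefore not independent of that choice. The 57 tiles became 532, 1566 or 1349 when pro-B WT library 1, 2 or 3 was left out, and the 7 became 64, 95 or 121. In those fits the minimum of 2 values was counted before the library was removed, so fewer than 2 pro-B WT values could remain.

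**Figure D3:**
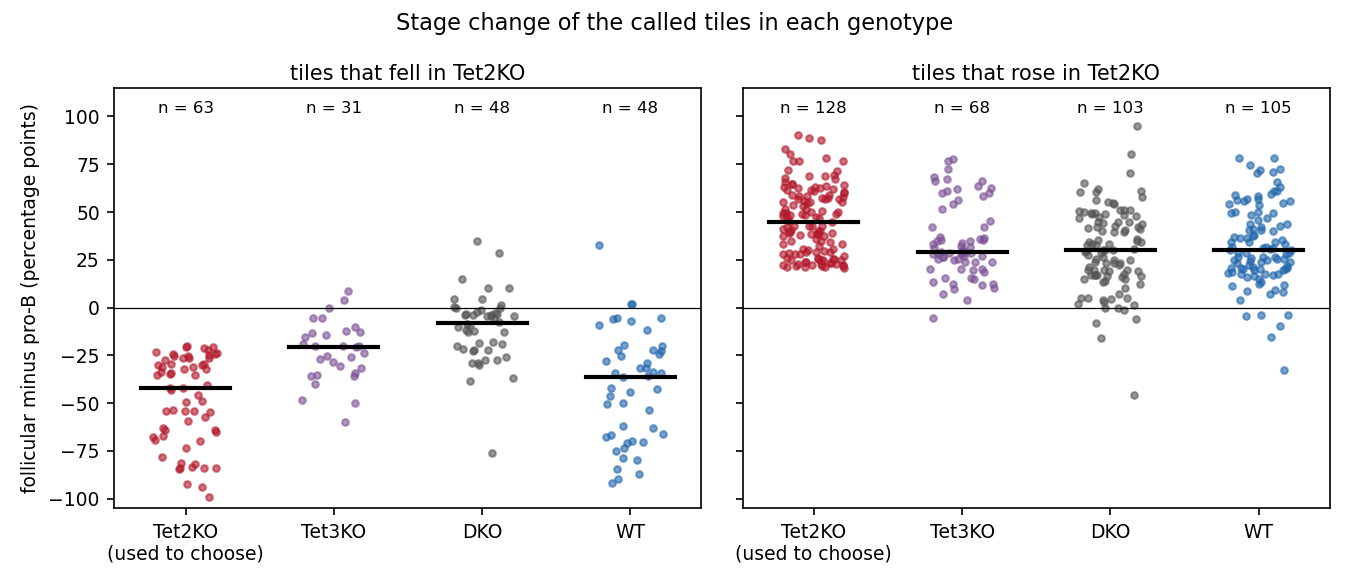
Change in percentage points from pro-B to follicular cells at each called tile (points) in 4 genotypes, with the median as a black line and the number of tiles with a change above. At tiles that fell in Tet2KO the medians were -42.1, -20.5, -8.11 and -36.2 points in Tet2KO, Tet3KO, DKO and WT, and at tiles that rose they were 45.0, 29.2, 30.2 and 30.1 points.

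Starting from WT gave the reverse view. In the same fit limma called 159 falls (0.0612%) and 551 rises (0.212%) between the WT stages, over the 259891 tiles with at least 2 values per WT stage. Of the 48 Tet2KO falls testable in WT 29 were also WT falls, which is 60.4% of the Tet2KO list and 18.2% of the WT list. Of the 105 Tet2KO rises testable in WT 55 were also WT rises, 52.4% of the Tet2KO list and 9.98% of the WT list. At the 159 WT falls the Tet2KO change was below 0 at 148 tiles and -20 points or lower at 74, with a median of -17.8 points. The follicular level at these tiles was 60.7% ± 0.799 in Tet2KO, 67.5% ± 0.715 in Tet3KO, 79.7% ± 0.0745 in DKO and 48.2% ± 0.67 in WT (SD, n = 3 each). Follicular Tet2KO cells thus lay between WT and Tet3KO at tiles chosen in WT, but close to WT at the falling tiles chosen in Tet2KO. The pro-B level at the WT falls was 83.9% ± 0.683 in Tet2KO and 89.0% ± 0.785 in WT (SD, n = 3 each). At the 551 WT rises the Tet2KO change was 20 points or higher at 165 tiles and below 0 at 178, with a median of 7.81 points, against 39.6 in WT. The follicular level there was 76.3% ± 0.367 in Tet2KO and 77.5% ± 0.148 in WT, and the pro-B level was 63.2% ± 1.32 in Tet2KO and 32.5% ± 3.93 in WT (SD, n = 3 each). In both lists WT chose the tiles, so its change is the overstated one.

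The rising tiles were a different set. In follicular cells 70 of the 128 (54.7%) stood between 20 and 80%, against 12.4% of all tiles, and 58 (45.3%) above 80%, against 48.3%. The pro-B mean was under 20% in 78 (60.9%), against 40.3% of all tiles, and between 20 and 80% in 50 (39.1%), against 12.6%. A rise of at least 20 points cannot start above 80% or end under 20%. All these shares thus partly follow from the call rule. Over all tiles, 120241 had a pro-B mean under 20%, 37441 one between 20 and 80% and 140605 one above 80%. Only 1 was a dense tile, 112 were of intermediate density and 15 were isolated. The 128 tiles formed 121 regions, 7 of them with at least 2 called tiles.

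Among the multi-tile rising regions, chromosome 19, 40696201 to 40696400, was at 71.9, 65.5 and 46.1% in follicular Tet2KO libraries, against 0, 9.36 and 0% in pro-B Tet2KO libraries. A second region of the same chromosome, 40636101 to 40636300, was at 62.5, 54.7 and 61.3% in follicular libraries, against 0, 7.70 and 0% in pro-B libraries. At both, library 5, the Tet2KO library with the most tiles, was the pro-B library above 0. Chromosome 4, 51267101 to 51267300, was at 74.8, 48.6 and 59.9% in follicular Tet2KO libraries, against 7.71, 4.31 and 5.45% in pro-B Tet2KO libraries. Chromosome 10, 40021801 to 40022000, was at 60.9, 50.9 and 56.9% in follicular libraries, against 2.73, 3.41 and 3.77% in pro-B libraries, with adjusted p-values (limma) of 0.00159 to 0.00331. All 4 regions thus had a follicular level of 46.1% or more in each Tet2KO library, and a pro-B level below 10%.

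Chromosome 18, 64609501 to 64609700, was at 57.0% ± 9.68 in follicular and 5.38% ± 5.69 in pro-B Tet2KO cells (SD, n = 3 each). Chromosome 6, 127464301 to 127464500, started higher, at 86.2% ± 2.66 in follicular and 43.6% ± 13.3 in pro-B cells. Chromosome 2, 34793201 to 34793400, stayed low, at 29.7% ± 4.87 in follicular and 5.59% ± 4.28 in pro-B cells. The 3 named single tiles were listed at 0 in all pro-B Tet2KO libraries and stood at 90.5% ± 8.57 (chromosome 6, 136062001 to 136062100), 88.8% ± 12 (chromosome 8, 124847501 to 124847600) and 87.7% ± 7.10 (chromosome 3, 152464401 to 152464500) in follicular Tet2KO cells (SD, n = 3 each). At the chromosome 6 tile the single pro-B DKO library with a value was at 100%, and at the chromosome 3 tile the single pro-B DKO and WT libraries were at 52.6 and 50%.

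At the first 5 of these regions the follicular level was much the same with and without the enzymes. It was 56.3 to 61.2% in Tet2KO, 53.5 to 66.8% in Tet3KO, 55.3 to 63.1% in DKO and 49.9 to 62.2% in WT, as means of up to 3 libraries. Pro-B Tet3KO and WT means were 0 to 0.758%. Pro-B DKO library 10, the DKO library with the most tiles, stood apart at 35.0, 21.8, 36.5, 21 and 38.4%, while DKO libraries 11 and 12 were at 0 to 0.49%. With each Tet2KO library left out in turn, both chromosome 19 regions and the chromosome 18 region were no longer called in 4 of the 6 fits, the chromosome 4 region in 3 and the chromosome 2 region in 1. With libraries centred both chromosome 19 regions and those on chromosomes 4, 18 and 2 were not called. On logit values the chromosome 19 region at 40696201 and those on chromosomes 4 and 18 were not called, nor was the chromosome 6 region at 127464301.

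Over all 128 rising tiles the follicular level was 68.4% ± 0.756 in Tet2KO, 66.6% ± 0.842 in Tet3KO, 67.9% ± 1.19 in DKO and 63.3% ± 0.617 in WT (SD, n = 3 each). The pro-B level was 22.6% ± 2.44 in Tet2KO (n = 3), 24.2% ± 1.81 in Tet3KO (n = 2), 32.3% ± 10.6 in DKO (n = 3) and 27.0% ± 2.00 in WT (n = 3), each ± SD. The DKO libraries 10, 11 and 12 were far apart, at 43.5, 30.9 and 22.4%, and these means rest on 116, 108 and 69 of the 128 tiles. The median change was 45.0 points in Tet2KO, 29.2 in Tet3KO (68 tiles), 30.2 in DKO (103 tiles) and 30.1 in WT (105 tiles). A rise of at least 20 points was found at 77.9% of these tiles in Tet3KO, 65.0% in DKO and 75.2% in WT, against 5.59, 3.99 and 4.62% of all tiles with values. These medians depended on the libraries that chose the tiles. At tiles with an adjusted p (limma) under 0.05 without pro-B library 5, and a rise of at least 20 points over all 6 libraries, they were 24.5 points in Tet3KO, 8.67 in DKO and 11.2 in WT, and at those found without pro-B library 4 they were 28.2, 16.3 and 20.8 points in the same order. Without library 6 they were 26.3 points in Tet3KO, 18.3 in DKO and 21 in WT. In the contrasts of the Tet2KO change with those of the other genotypes, 0 of the 68 rising tiles testable in Tet3KO, 2 of 103 in DKO and 1 of 105 in WT were called.

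Pro-B values of exactly 0 occurred at rising tiles at shares on both sides of those over all tiles. All tiles include 140605 with a pro-B mean over 80%, which could not rise far enough to be called. A tile with a pro-B value of 0 cannot have such a mean, so shares among tiles able to rise would be higher. The comparison with all tiles therefore does not decide whether zeros were frequent or rare at rising tiles. All 3 pro-B Tet2KO libraries were at 0 at 18 of the 128 rising tiles (14.1%), against 19.2% of all tiles tested. At least 1 of them was at 0 at 64 rising tiles (50%), against 36.6% of all tiles tested. By library, 30.5, 23.4 and 40.6% of the values of pro-B libraries 4, 5 and 6 at the rising tiles were 0, against 27.9, 26.7 and 30.5% over all tiles. At the 18 tiles the pro-B level was 0 in Tet3KO libraries 7 and 9, 12.3% ± 11.4 in DKO and 3.79% ± 3.30 in WT (SD, n = 3 each for DKO and WT), and the follicular level was 54.5 to 61.0% in the knockouts and 47.4% in WT. At the other 110 tiles the median change was 29.1 points in Tet3KO, 29.2 in DKO and 30.3 in WT. The part of few reads in these zeros was not tested.

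How far a call held in a library that did not choose it was read from the fits that left out 1 Tet2KO library. At the 61, 85 and 53 tiles called as falling without pro-B library 4, 5 or 6, the left-out library stood at 72.0, 70.9 and 74.8%. The 3 follicular libraries stood at 32.9, 36.1 and 33.4% there, and the 2 pro-B libraries that chose the tiles at 85.1, 82.1 and 85.1%. The left-out library lay on the called side of the follicular mean at 55 of 61, 78 of 85 and 45 of 53 tiles. Left-out follicular libraries 16, 17 and 18 stood at 59.5, 61.0 and 59.0% at falling tiles, against 94.5, 95.1 and 94.5% in the pro-B libraries. Falls were therefore smaller in the left-out library but in the called direction at most tiles. The libraries of the other stage had helped to choose the tiles, which raises such counts, also for the rises below. No share over all tiles is given beside these counts, so they are a description.

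Rises held less well when a pro-B library was left out. At the 177, 516 and 132 tiles called as rising without pro-B library 4, 5 or 6, the left-out library stood at 69.5, 74.4 and 65.3%. The follicular libraries stood there at 86.7, 86.3 and 86.2%, and the pro-B libraries that chose the tiles at 45.8, 41.3 and 45.6%. The left-out library lay on the called side at 106 of 177, 305 of 516 and 69 of 132 tiles. Left-out follicular libraries stood at 53.7, 57.1 and 56.6%, against 19, 21.3 and 20.3% in the pro-B libraries, and lay on the called side at 92 of 95, 95 of 98 and 75 of 79 tiles.

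**Figure D4:**
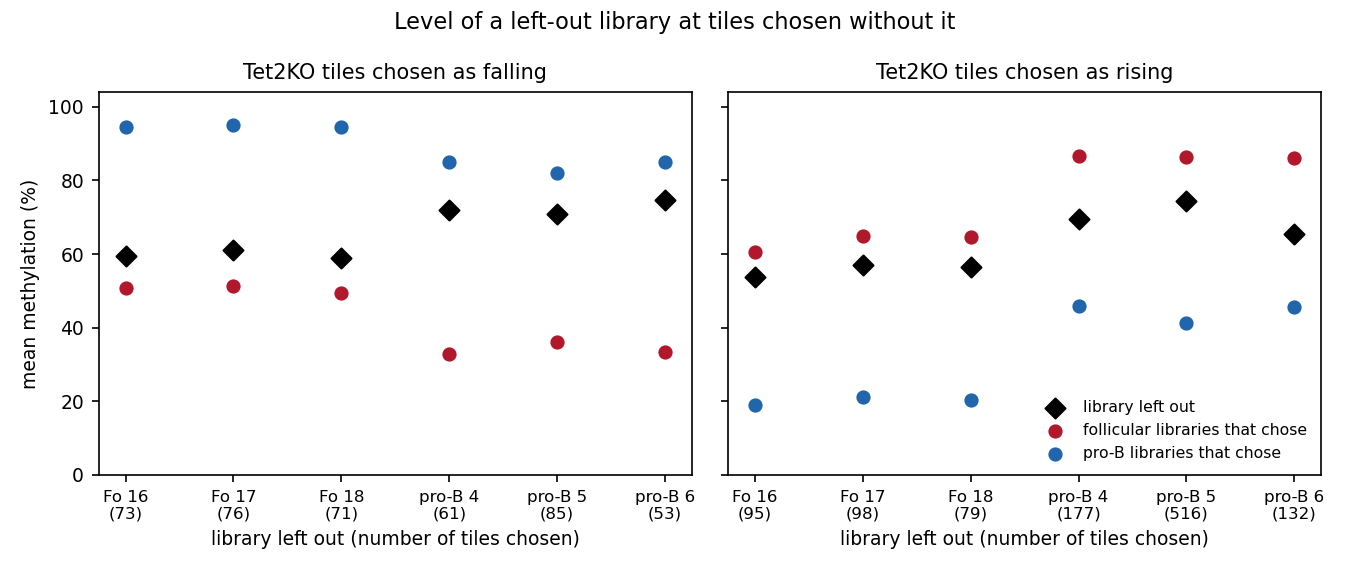
Mean methylation in percent at Tet2KO tiles called as falling (left) or rising (right) when 1 library was left out, for the library left out (diamonds), the follicular (Fo) libraries and the pro-B libraries that chose the tiles. For rises the left-out pro-B libraries stand at 65.3 to 74.4%. Libraries 4 and 5 are nearer to the follicular than to the pro-B libraries that chose the tiles, and library 6 is about midway.

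Neighbouring tiles that were not called themselves differed in the same direction on average. The 52 uncalled tiles directly beside a falling tile, with starts 100 bp apart, had a mean change of -8.54 points and a median of -3.00, and 33 of them were lower in follicular cells. At 200 bp the mean was -5.55 points over 24 tiles, at 300 to 500 bp -1.92 points over 22 tiles, and at 1100 to 2000 bp -1.16 points over 27 tiles. Beside rising tiles the mean change was 16.5 points over 105 tiles at 100 bp, with 86 of them higher in follicular cells, and 6.48 points over 39 tiles at 200 bp. It was 1.69 points over 64 tiles at 600 to 1000 bp and 3.55 over 94 tiles at 1100 to 2000 bp. Adjacent tiles can lie on the same restriction fragment and share reads, so these values are a description.

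**Figure D5:**
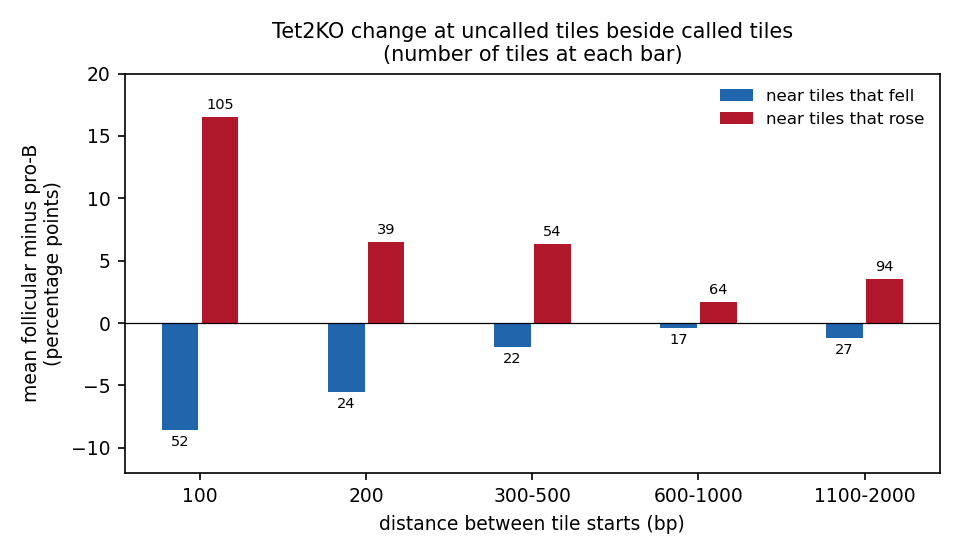
Mean follicular minus pro-B difference in Tet2KO, in percentage points, at uncalled tiles grouped by the distance in bp of their start from a called tile, with the number of tiles at each bar. The difference is largest at 100 bp, at -8.54 points beside falls and 16.5 points beside rises, and is within 4 points of 0 beyond 500 bp.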

How the data were processed

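RRBS of 24 libraries was analysed, and 16 RNA samples of the series were not used here. Each value in the deposited table is a fraction of methylated cytosines for 1 tile of 100 bp in 1 library, per the file headers. The submitters' processing notes name Trim Galore, methylKit and the builds mm9 and hg19. The last tile of chromosome 1 ends at 197193600, within the length of that chromosome in mm9, which was taken as the build. The aligner and coverage minimum are not given in the sources used here.

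Fractions were converted to percentages. Limma 3.58.1 (R 4.3.3) was fitted per tile with the 8 groups as a factor and a trended prior spread, leaving 4 to 16 residual degrees of freedom (median 14) as values were missing in other groups. Tests of single values were two-sided exact permutation tests (scipy 1.17.1). The differences of changes needed at least 2 values in each stage of the other genotype. These values were counted over all 24 libraries, also in the fits that left a library out. The procedure was tested on simulated data.

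Called tiles within 500 bp were joined, and regions whose stages did not overlap were ranked, those with at least 2 called tiles first and then by mean difference, with at most 10 named per direction. For the difference between the Tet2KO and WT changes at most 5 were named per direction. Levels of regions are averages of their tiles. The tiles, classes and lists were chosen with earlier results of these data known. Pro-B libraries were matched to follicular libraries by running number plus 12, which agree in sex and age. Genes and sequences are not reported, as no mm9 annotation or genome was used here. Alternatives are described in the closing section.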

Additional observations from a re-analysis of the deposited data

Results flagged for a closer look

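The stage change differed between Tet2KO and WT, by limma's contrast of the changes at an adjusted p under 0.05 and 20 points, at 57 tiles where the Tet2KO change was the lower and at 7 tiles where it was the higher. At the 57 tiles the median change was -2.78 points in Tet2KO and 40.2 in WT, and the mean level was 94.1% in follicular Tet2KO, 97.7% in pro-B Tet2KO, 94.5% in follicular WT and 50.7% in pro-B WT. The tiles thus stood apart in pro-B WT cells, whose libraries had 314437 to 425669 tiles against 402283 to 631415 in pro-B Tet2KO. The part of this gap in the result was not tested. The count was 532, 1566 or 1349 without pro-B WT library 1, 2 or 3. The count of 7 was 38, 94 or 34 without pro-B Tet2KO library 4, 5 or 6, 15, 11 or 13 without follicular WT library 13, 14 or 15, and 64, 95 or 121 without pro-B WT library 1, 2 or 3. In the fits without a WT library, tiles with fewer than 2 remaining values in that WT stage were kept.

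The 5 with the lowest difference were single tiles. Chromosome 3, 158842301 to 158842400, differed by -104 points, with pro-B levels of 100% in Tet2KO (n = 3) and 0 in WT (n = 2). The tile on chromosome 4, 130484501 to 130484600, differed by -99.3 points, and that on chromosome 3, 96487501 to 96487600, by -93.1 points. Both were listed at 0 in the 2 pro-B WT libraries with a value. On chromosome 14, 120548101 to 120548200, the difference was -88.1 points, and on chromosome 10, 62640401 to 62640500, it was -84.7 points.

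The 5 with the highest difference included chromosome 4, 57796301 to 57796400, at 91.5 points. Its level was 95.6% ± 3.50 in follicular and 36.9% ± 5.58 in pro-B Tet2KO cells, and 52.4% ± 5.10 in follicular and 85.2% ± 10.7 in pro-B WT cells (SD, n = 3 each). Chromosome 15, 34768001 to 34768100, differed by 69.8 points, chromosome 19, 23852801 to 23852900, by 30.9, chromosome 13, 3944001 to 3944100, by 30 and chromosome 14, 48187701 to 48187800, by 29.9 points.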

How the results depend on the processing

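Depth behind each value is unknown, and a level of 0 or 100% may rest on few reads. Falls of 63 and rises of 128 tiles became 12 and 5 with only the 6 Tet2KO libraries fitted, 9 and 5 with X kept in that fit, 31 and 22 with libraries centred, 137 and 420 over the 447191 tiles with at least 2 values per Tet2KO stage, 40 and 73 over the 200813 tiles with at least 2 values in every group, and 113 and 223 with no minimum difference. Rises were 198 with no trend in the prior spread. With age as a block in the 6 libraries limma called 0 and 0 tiles, with 21410 at an unadjusted p under 0.05. With a replicate block (pro-B library n with follicular library n + 12) limma called 0 falls and 0 rises, with 16502 tiles at an unadjusted p under 0.05, and for the Tet2KO against the WT change it called 3 tiles lower and 0 higher. Deviations of matched Tet2KO libraries from their stage means correlated at 0.0083 to 0.0148, too weakly to show pairing, though each library correlated best with its own match. In WT and DKO, too, each follicular library correlated best with its match, at 0.0033 to 0.0206 in WT and 0.0311 to 0.0853 in DKO. Whether matched libraries came from the same mouse is not stated in the labels, so the block result remains a limit on the calls. With each library left out in turn, falls numbered 53 to 85 and rises 79 to 516. The difference of changes was lower in Tet2KO at 52 to 1566 tiles and higher at 6 to 121, and with only the 12 WT and Tet2KO libraries fitted it was lower at 36. The fits without a WT library kept tiles with fewer than 2 remaining values in that WT stage. The overall mean difference kept its sign at 0.394 to 1.23 points. Logit values gave 88 falls and 159 rises, of which 37 and 58 were among the 63 and 128. A minimum of 30 points, and leaving out library 8, gave counts within 1.5 times. The causes were not tested, including the part of the fewer degrees of freedom in fits of 6 libraries. With only the 6 Tet2KO libraries fitted, limma gave 22346 tiles at an unadjusted p under 0.05, against 19264 in the fit reported above. Of its 12 falls and 5 rises, 0 and 0 were among the 63 and 128, so the list was a different one and not only a shorter one. All 20 named regions lost their calls with only the 6 libraries fitted. None changed sign, but most alternatives left the mean difference itself unchanged. The regions were also chosen with their stages apart, so leaving out 1 library could not reverse the sign, and the kept sign does not measure stability. At tiles with an adjusted p under 0.05 in each of 11 alternatives and 20 points in all 6 libraries, the median change at falls was -25.1 to -12.5 points in Tet3KO, -8.81 to 0 in DKO and -64.5 to 0.052 in WT, the highest WT value being that of the fit of 6 libraries, with 8 tiles. At rises it was 17.6 to 45.4 points in Tet3KO, 8.67 to 39.4 in DKO and 11.2 to 31.3 in WT.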

Other observations

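The X chromosome was outside the comparison, and all 6 Tet2KO libraries were labelled female. Dense tiles of X with a value in all 6 libraries numbered 388 and stood at 34.4, 34.9 and 32.9% in follicular libraries 16, 17 and 18, against 31.6, 31.5 and 25.4% in pro-B libraries 4, 5 and 6. All follicular libraries lay above all pro-B libraries, with a difference of 4.63 points (SE 2.14, two-sided exact permutation p = 0.1, n = 3 each). Of these tiles 61.9% had a mean of 20 to 80%, against 2.27% of dense autosomal tiles. In females CpG islands of the inactive X are known to be methylated. Isolated tiles of X, at 89.1% ± 0.247 in follicular and 87.8% ± 1.6 in pro-B libraries (SD, n = 3 each), overlapped between the stages.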
